A study of Mus musculus with 30 samples.

Results

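The 8 genes described here are the mouse counterparts of alpha-1-antitrypsin (Serpina1a, Serpina1b, Serpina1c, Serpina1d and Serpina1e) and 3 genes of the alpha-1-antichymotrypsin group (Serpina3k, Serpina3m and Serpina3n). They were found by their symbols among the 55450 genes of the deposited count table, and all 8 had enough counts to be tested in every comparison. Their mRNAs were measured in whole livers of male mice on a diet high in fat, cholesterol and fructose (HFCFD), in 30 libraries from 6 groups of 5 mice. All mice carried floxed Cebpa, the gene of a liver transcription factor, on a C57BL/6N background. In HFCFD2W, fed for 2 weeks, Cebpa fl/fl mice without Cre (Cre-) were compared with CebpaΔHep mice (Cre+), in which albumin-Cre removes Cebpa from hepatocytes before adulthood. In HFCFD8W+T10D and HFCFD12W+T10W, Cebpa fl/fl mice were compared with CebpaΔHep,ERT2 mice, in which albumin-ERT2-Cre acts only once tamoxifen is given. Mice of both genotypes received it for the last 10 days in HFCFD8W+T10D, named for 8 weeks of diet, and for the last 10 weeks of 22 weeks of diet in HFCFD12W+T10W. Cre+ mice are called knockout below. Ages were not given in the labels or the text of the paper, Cre line, diet time and tamoxifen differ together between the experiments, and Cre- mice carried neither Cre gene.

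Serpins are protease inhibitors that act once. The protease cuts an exposed stretch near the end of the serpin, the reactive-centre loop, and is trapped as the inhibitor changes shape, so the residues of that loop decide which protease is held. Alpha-1-antitrypsin is made mainly by hepatocytes, secreted into blood, and guards tissue against neutrophil elastase, while alpha-1-antichymotrypsin in humans holds cathepsin G and related enzymes and rises in the acute phase. Mice carry several copies of each where humans have a single gene.

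All 8 genes lie on chromosome 12 (GRCm38, GENCODE M21). The 5 Serpina1 genes are on the minus strand within 230820 bases, with Serpina1b annotated from 103728156 to 103830373 around Serpina1d (103763594 to 103773592), followed by Serpina1a (103853589 to 103863562), Serpina1c (103894926 to 103904887) and Serpina1e (103946931 to 103958975). The 3 Serpina3 genes are on the plus strand, where Serpina3k (104338486 to 104346144) lies inside the span of Serpina3m (104338486 to 104394257), next to Serpina3n (104406729 to 104414329). The coding sequences of the Serpina1 genes were 96.3% to 98.5% identical in pairs, with Serpina1a and Serpina1c the closest (19 of 1239 aligned bases differ). Serpina1e differed from each other Serpina1 gene at 43 to 46 bases, and Serpina1d at 41 to 46. Serpina3k and Serpina3m were 91.7% identical, and Serpina3n was 82.9% and 85.2% identical to them. Of the 1239 aligned coding columns without a gap, 86 differed among the Serpina1 genes, and the 60-base stretch with the most of them held 18, against a median of 4 over all such stretches. These 60 bases, all in 1 exon, hold the reactive-centre loop and are shown because they are where these genes can best be told apart. Capitals mark the 18 columns that differ among the 5 genes, and each sequence is read on the minus strand from the GENCODE M21 transcript.
Serpina1a: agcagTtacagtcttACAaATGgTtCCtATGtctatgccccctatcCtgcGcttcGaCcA
Serpina1b: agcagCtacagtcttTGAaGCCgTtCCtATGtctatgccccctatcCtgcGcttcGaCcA
Serpina1c: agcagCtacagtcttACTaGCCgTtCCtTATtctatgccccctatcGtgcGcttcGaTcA
Serpina1d: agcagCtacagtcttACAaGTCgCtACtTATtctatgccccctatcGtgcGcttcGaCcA
Serpina1e: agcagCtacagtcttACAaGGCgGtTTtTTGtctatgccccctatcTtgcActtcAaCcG
The stretches lie at chr12:103853757-103853816 (Serpina1a), chr12:103728324-103728383 (Serpina1b), chr12:103895094-103895153 (Serpina1c), chr12:103763762-103763821 (Serpina1d) and chr12:103947100-103947159 (Serpina1e). Serpina1e differed from the others at 10 to 12 of the 60 bases, while Serpina1c and Serpina1d differed from each other at 5 and Serpina1a and Serpina1b at 6. The remaining pairs differed at 8 to 10 bases.

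Because so much sequence is shared, a read from one Serpina1 gene can fit another, and the counts deposited by the authors are estimates in which such reads were divided between genes. Of all windows of 100 bases in the Serpina1c transcript, 58.5% were found unchanged in a transcript of another gene, and 58.0% in Serpina1a. The share was 49.9% for Serpina1a, 29.3% for Serpina1d, 26.4% for Serpina1b and 18.2% for Serpina1e. In the Serpina3 group it was 4.85% for Serpina3k, 6.09% for Serpina3m and 0.204% for Serpina3n. The divided reads show in the values themselves: Serpina1c had a whole-number count (within 0.015) in 0 of 30 libraries, Serpina1a, Serpina1b, Serpina1d and Serpina1e in 1 each, Serpina3k and Serpina3m in 2 each, and Serpina3n in 18. Over all genes, 10.8% of the values above 0 were not whole. A count that is not whole shows that some reads were divided, but not how many. Values of single Serpina1 genes, above all the split between Serpina1a and Serpina1c, are therefore uncertain, and the summed counts of each family are given beside them. Serpina1e and Serpina3n are the members least open to this exchange within their families. The transcript of Gm8893 also shares runs of 50 bases with all 5 Serpina1 genes.

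**Figure D1:**
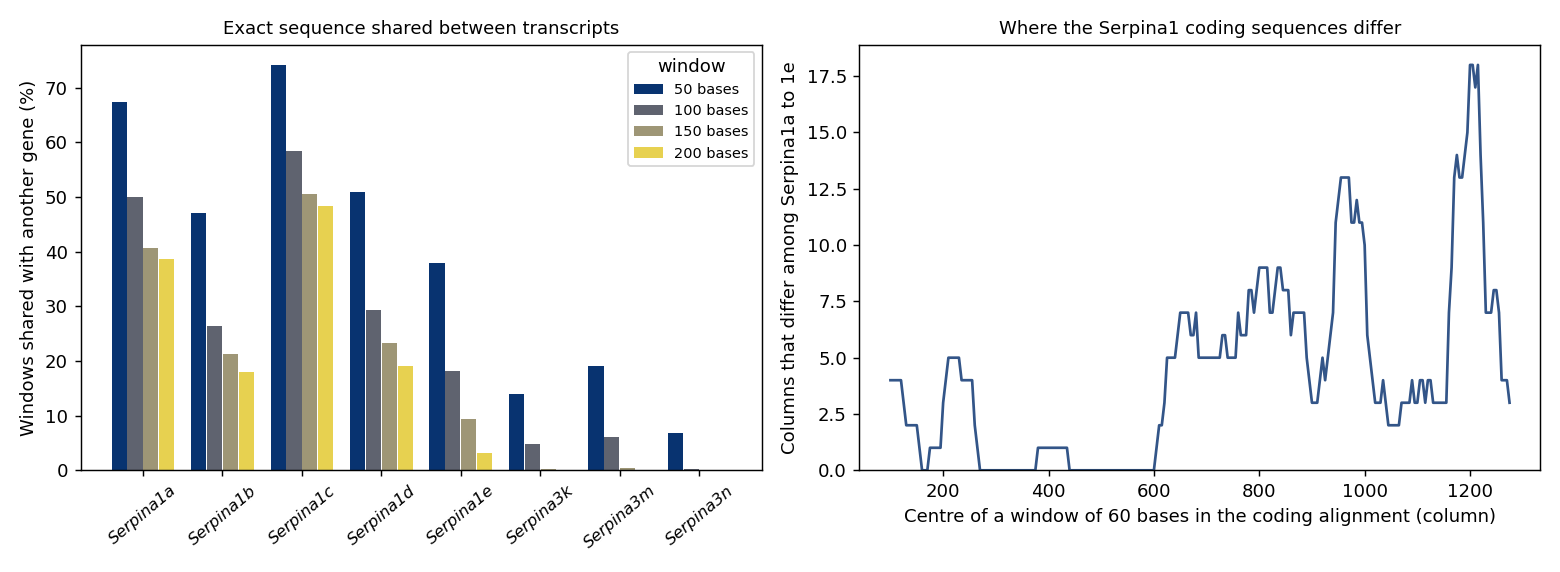
Left, percent of windows of 50, 100, 150 and 200 bases in each transcript that occur unchanged in a transcript of another gene. Right, number of alignment columns (of 60 in each window) that differ among the 5 Serpina1 coding sequences, along the coding alignment. Serpina1c and Serpina1a share the most, Serpina3n almost nothing at 100 bases, and the differences peak at 18 near the end of the coding sequence.

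The bases upstream of the Serpina1 genes are also close copies. Over their overlapping parts, the RefSeq promoter windows (250 bases before to 50 after the annotated start, GRCm38.p6) were 91.4% to 97.6% identical in pairs. Windows were given for 6 of the 8 genes, all but Serpina3k and Serpina3m. The letters of a C/EBP core, TTGCNNAA on either strand, occurred in the windows of Serpina1a, Serpina1b, Serpina1d and Serpina1e, and in 10.8% of all 32851 promoter windows of this length. The match lay before the start in Serpina1b, Serpina1d and Serpina1e. In Serpina1a it was at another place of the sequence, 24 bases after the start. The HNF1 core GTTAAT was in the windows of all 5 Serpina1 genes and in 7.10% of all windows, and the STAT motif TTCNNNGAA was in none of the 6 and in 8.30% of all. No match was found in Serpina3n for any of the 3 motifs. The annotated starts do not line up across the family. The HNF1 match lay at -27 to -16 from the start in Serpina1a to Serpina1d and at -78 in Serpina1e, so its window is offset. The 250 upstream bases of Serpina1e, the member with the largest log2 fold change in both tamoxifen experiments, and of Serpina1c, the most abundant per length in fl/fl livers, are shown with the matches in capitals (minus strand, chr12:103956898-103957147 and chr12:103904951-103905200).
Serpina1e: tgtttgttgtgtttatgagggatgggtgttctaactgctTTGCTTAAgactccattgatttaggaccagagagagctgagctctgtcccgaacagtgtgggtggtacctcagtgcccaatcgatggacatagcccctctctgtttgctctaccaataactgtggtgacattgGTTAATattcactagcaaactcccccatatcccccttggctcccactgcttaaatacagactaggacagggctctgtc
Serpina1c: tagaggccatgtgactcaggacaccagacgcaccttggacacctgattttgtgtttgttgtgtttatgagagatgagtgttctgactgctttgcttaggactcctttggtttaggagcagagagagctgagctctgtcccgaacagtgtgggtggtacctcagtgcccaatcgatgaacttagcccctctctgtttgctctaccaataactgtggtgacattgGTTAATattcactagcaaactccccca
The upper sequence holds a C/EBP and an HNF1 match and the lower an HNF1 match only. A match of letters is a description of these windows and says nothing about binding in these livers.

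Libraries held between 7996128 and 10257366 expected counts. Cebpa was lower in all knockout livers, at 3.43 to 5.68 CPM (counts scaled to a common library size) against 149 to 193 in HFCFD2W, 11.1 to 25.1 against 121 to 156 in HFCFD8W+T10D and 18.7 to 23.8 against 82.5 to 135 in HFCFD12W+T10W. The 8 hepatocyte markers summed to 117113 to 146932 CPM in fl/fl and 123303 to 172045 CPM in knockout livers of HFCFD2W, to 114313 to 138492 and 61423 to 121546 CPM in HFCFD8W+T10D, and to 96459 to 121079 and 55414 to 64548 CPM in HFCFD12W+T10W. Of all genes tested in edgeR, 8.09%, 6.85% and 23.8% fell and 8.6%, 10.3% and 27.4% rose from the first to the last experiment. These shares are the background for the marker counts below. Of the 8 hepatocyte markers 0, 1 and 3 fell in the 3 experiments and 0 rose (median log2 fold changes 0.09, -0.09 and -0.13). The 0 lower in HFCFD2W was also 0 at an unadjusted p under 0.05 and in DESeq2 and limma. For rising markers the count at an unadjusted p under 0.05 in edgeR was 2, 2 and 0, in DESeq2 1, 1 and 0 and in limma 0, 2 and 4. With library totals in place of TMM factors 0, 2 and 4 were higher and 0, 1 and 3 lower. The median log2 fold changes were then 0.12, 0.07 and 0.24, so the sign of the median in the tamoxifen experiments turns on the scaling. The 9 stellate-cell and fibroblast markers summed to 310 to 582 CPM in fl/fl and 551 to 1138 CPM in knockout livers of HFCFD8W+T10D, where 3 rose, and to 275 to 348 and 1214 to 1502 CPM in HFCFD12W+T10W, where all 9 rose. All 6 cholangiocyte markers rose in HFCFD12W+T10W, from 3.22 to 5.25 CPM to 36.6 to 66.0 CPM. Macrophage markers rose in 5 of 9 in both tamoxifen experiments, and 2 of 9 fell in HFCFD12W+T10W. Of 6 endothelial markers 1 fell in HFCFD8W+T10D and 2 in HFCFD12W+T10W, but with library totals and in limma 0 were lower in either and 2 were higher in HFCFD12W+T10W, so their direction turns on the scaling. In HFCFD12W+T10W the 2 of 8 neutrophil markers that could be tested rose. None of the hepatocyte, stellate-cell, cholangiocyte or macrophage markers was at 0 in all mice of a tamoxifen group. In bulk liver, fewer hepatocytes and less mRNA per hepatocyte cannot be told apart, and the part of cell makeup in the values below was not tested.

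In HFCFD2W the 8 members took a median of 4.50% of all counts in fl/fl and 3.67% in knockout livers. In HFCFD8W+T10D these medians were 4.56% and 2.01%, and in HFCFD12W+T10W 3.34% and 1.25%. Per length, as the deposited TPM (transcript abundance scaled by length), Serpina1c was the most abundant in median in all 3 fl/fl groups, at 9924 ± 299.7 (SD, n = 5), 9485 ± 1372 and 9447 ± 1972 TPM. Serpina3k followed in median, at 9146 ± 1257, 8945 ± 1460 and 5137 ± 1895 TPM, and its range overlapped that of Serpina1c in each. In knockout livers of HFCFD2W and HFCFD8W+T10D Serpina3k had the highest median. Serpina1b stood at 5798 ± 178 TPM in fl/fl livers of HFCFD2W, Serpina1a at 4158 ± 245 and Serpina1d at 3713 ± 98.1. Serpina3n (198 to 263 TPM) and Serpina3m (152 to 235 TPM) were an order of magnitude lower. The spread between mice was uneven: Serpina1d varied by 2.64% (SD over mean) in those livers and Serpina1e by 39.7%, with TPM from 4161 to 10458.

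**Figure D2:**
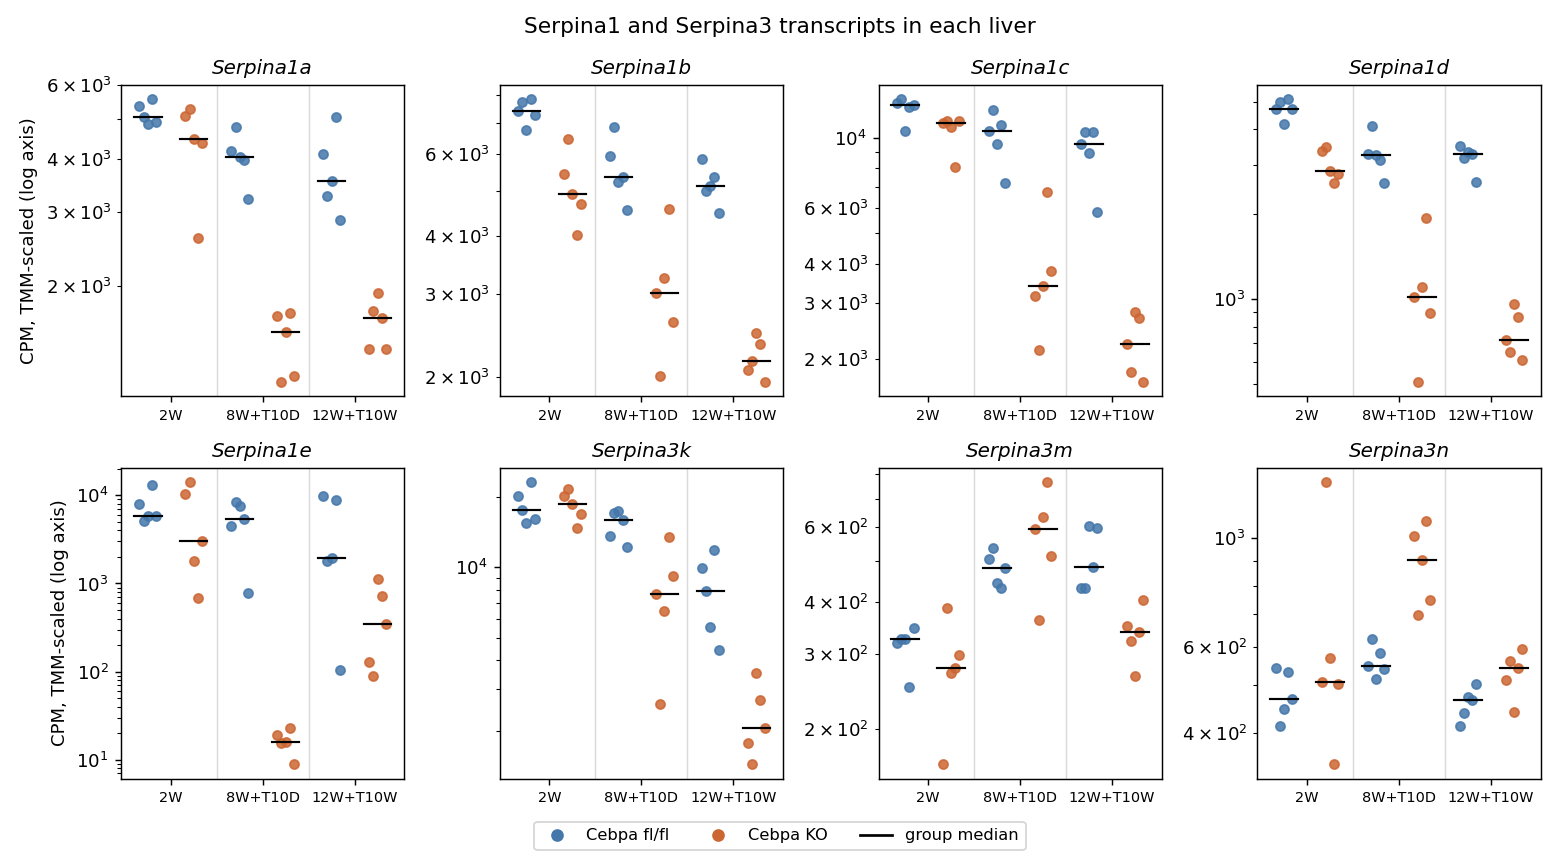
CPM of each member (log axis) in each of the 30 livers, by experiment, with fl/fl mice in blue, knockout mice in orange and the group median as a line. Serpina1a to Serpina1d fall with a clear gap in most tamoxifen comparisons, Serpina1e reaches 8.83 to 23.1 CPM in the knockout livers of HFCFD8W+T10D, and Serpina3n lies higher there.

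In HFCFD2W, with Cebpa lost from hepatocytes before adulthood, Serpina1b and Serpina1d fell by 1.45-fold and 1.58-fold and no member rose. Thus 2 of 8 members were lower (8.09% of the 11068 genes tested were) and 0 of 8 higher (8.6% were), by an edgeR quasi-likelihood test at an adjusted p under 0.05. At an unadjusted p under 0.05, in DESeq2 and in limma the number higher was also 0. Serpina1d measured 4739, 5010, 4181, 5125 and 4735 CPM in the fl/fl livers and 3366, 3466, 2840, 2584 and 2771 CPM in the knockout livers. Every knockout value was under every fl/fl value, and the log2 fold change was -0.66 ± 0.0992 (SE; adjusted p = 0.00071, edgeR). Serpina1b measured 7407, 7753, 6756, 7860 and 7281 CPM against 5441, 6464, 4923, 4020 and 4676 CPM, again without overlap, with a log2 fold change of -0.54 ± 0.115 (adjusted p = 0.0072, edgeR). Groups without overlap and with the knockout lower were found for 6.13% of all genes tested. The other members did not pass, with log2 fold changes of -0.24 for Serpina1a, -0.23 for Serpina1c, -0.32 for Serpina1e, -0.01 for Serpina3k, -0.16 for Serpina3m and 0.43 for Serpina3n.

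Serpina1e and Serpina3n were the uneven members of the HFCFD2W knockout group. Serpina1e measured 10330 and 14315 CPM in knockout replicates 2 and 3 and 1778, 678 and 3037 CPM in replicates 4, 5 and 6, against 5140 to 13070 CPM in the fl/fl livers. Replicate 3 thus lay above, and replicates 4 to 6 below, the whole fl/fl range, and the log2 fold change lay between -0.93 and -0.03 when each mouse was left out. Serpina3n, a serpin that can hold granzyme B, was at 1307 CPM in knockout replicate 3 and at 344 to 569 CPM in the other 4, against 413 to 542 CPM in fl/fl livers. Without that mouse its log2 fold change went from 0.43 to 0.00066.

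Loss of Cebpa in adult mice for 10 days came with lower levels of all 5 Serpina1 genes and a higher level of Serpina3n. In HFCFD8W+T10D, 5 of 8 members were lower (6.85% of the 11990 genes tested were) and 1 of 8 higher (10.3% were). The number lower was 6 in DESeq2, in limma and with library totals in place of TMM factors. The median log2 fold change was -1.16 over the 8 members and 0.01 over all genes tested. Serpina1e had the largest difference. Its fl/fl livers measured 4502, 8416, 7544, 5391 and 777 CPM and its knockout livers 18.9, 15.4, 15.9, 23.1 and 8.83 CPM. The highest knockout value was far under the lowest fl/fl value, and the log2 fold change was -8.32 ± 0.624 (adjusted p = 7.43e-06, edgeR). It stayed between -8.61 and -8.11 when each mouse was left out in turn.

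The 4 other Serpina1 genes fell less in HFCFD8W+T10D. Serpina1c measured 10494, 12219, 9542, 10969 and 7192 CPM in fl/fl and 3171, 2138, 3400, 6754 and 3787 CPM in knockout livers, with a log2 fold change of -1.38 ± 0.278 (adjusted p = 0.0058, edgeR). Knockout replicate 4 was the highest here and came close to the lowest fl/fl liver, but the groups did not overlap. Serpina1a ranged from 3220 to 4769 CPM in fl/fl and from 1180 to 1717 CPM in knockout livers (log2 fold change -1.44 ± 0.170). Serpina1d ranged from 2580 to 4105 and from 510 to 1942 CPM (-1.56 ± 0.284). Serpina1b had the smallest difference of the family, -0.84 ± 0.216 (adjusted p = 0.018, edgeR), and its groups met, since knockout replicate 4 reached 4562 CPM and the lowest fl/fl liver was at 4538 CPM. In TPM they were apart, at 4486 to 5354 in fl/fl and 2694 to 3691 in knockout livers. In CPM, Serpina1a, Serpina1c, Serpina1d and Serpina1e thus had no overlap, a pattern found for 5.5% of all genes tested in that direction.

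The Serpina3 genes of HFCFD8W+T10D went different ways. Serpina3n measured 548, 622, 516, 581 and 541 CPM in fl/fl livers and 1013, 696, 904, 1086 and 749 CPM in knockout livers. All knockout values were higher, with a log2 fold change of 0.68 ± 0.141 (adjusted p = 0.0069, edgeR), and 6.01% of all genes tested were higher without overlap. Serpina3k, the kallikrein-binding member and by far the most abundant of the group, measured 13602, 17084, 17402, 15820 and 12184 CPM in fl/fl livers and 7703, 2606, 6498, 13453 and 9147 CPM in knockout livers. In CPM knockout replicate 4 lay inside the fl/fl range, while in deposited TPM the groups did not overlap (7687 to 10990 in fl/fl and 2253 to 7020 in knockout livers). The log2 fold change of -0.94 ± 0.335 did not pass (adjusted p = 0.072, edgeR). Without knockout replicate 4 it was -1.22 (adjusted p = 0.016, edgeR), and a joint fit of all 30 libraries, DESeq2, limma and library totals without TMM each gave an adjusted p under 0.05. Serpina3m had a log2 fold change of 0.27 ± 0.172 and did not pass, but did in limma on log2(TPM + 1), at 0.44, and with library totals without TMM, at 0.43.

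After 10 weeks of tamoxifen, all 8 members passed the test, 7 lower and Serpina3n slightly higher. With library totals 6 were lower, without Serpina3m, and in limma 5, without Serpina3m and Serpina1e. The background was wide, since 23.8% of the 12463 genes tested in HFCFD12W+T10W were lower and 27.4% higher. The median log2 fold change was -1.47 over the members and 0.01 over all genes tested. Serpina1d measured 3488, 3169, 3319, 3283 and 2597 CPM in fl/fl and 717, 651, 965, 864 and 611 CPM in knockout livers (log2 fold change -2.01 ± 0.139; adjusted p = 3.6e-07, edgeR). Serpina1c measured 9572, 10371, 8940, 10423 and 5802 CPM against 2223, 1813, 2821, 2690 and 1694 CPM (-1.96 ± 0.189). In both, the lowest fl/fl liver was at least 2-fold over the highest knockout liver. Serpina1a fell by 1.16 ± 0.153 and Serpina1b by 1.18 ± 0.101 on the log2 scale, also without overlap. Serpina3k measured 9933, 7909, 5555, 11853 and 4440 CPM in fl/fl and 1770, 1435, 3510, 2707 and 2046 CPM in knockout livers, a log2 fold change of -1.75 ± 0.292 (adjusted p = 0.00029, edgeR) without overlap. Groups without overlap and with the knockout lower made up 19.5% of all genes tested.

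Serpina1e was the least even member in HFCFD12W+T10W. Its fl/fl livers measured 9891, 1818, 1963, 8939 and 105 CPM, a 93.8-fold range, and its knockout livers 129, 89.1, 1130, 729 and 347 CPM. Fl/fl replicate 5 lay among the knockout values, so the groups overlapped, although every knockout liver was under the fl/fl median. The log2 fold change of -3.18 ± 0.984 passed (adjusted p = 0.016, edgeR), but not with limma on log2(TPM + 1), at -2.25 (adjusted p = 0.105). Serpina3m measured 267 to 404 CPM in knockout and 432 to 605 CPM in fl/fl livers (log2 fold change -0.56 ± 0.130; adjusted p = 0.0032, edgeR). Serpina3n measured 440 to 595 CPM in knockout and 413 to 503 CPM in fl/fl livers (0.25 ± 0.0916; adjusted p = 0.037, edgeR), with 1 knockout value inside the fl/fl range.

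The size of these last 2 differences rests on the scaling of the libraries. With library totals in place of TMM factors, the median of all genes in HFCFD12W+T10W moved up by 0.37 on the log2 scale, and by 0.18 in HFCFD8W+T10D. Serpina3m was then at -0.18 and no longer passed in HFCFD12W+T10W, as in limma, while Serpina3n was at 0.62 (adjusted p = 0.00015, edgeR). On the TPM scale Serpina3n ranged from 263 to 336 in fl/fl and from 368 to 528 in knockout livers, without overlap, and Serpina3m from 353 to 510 and from 287 to 459. With TMM, Serpina3n kept an adjusted p under 0.05 in edgeR only without knockout replicate 3 or fl/fl replicate 5. It lost that without any 1 of the other 8 mice. Over all 10 omissions the log2 fold change of Serpina3n lay between 0.19 and 0.31. Within either tamoxifen experiment, no member changed direction under the settings tried.

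**Figure D3:**
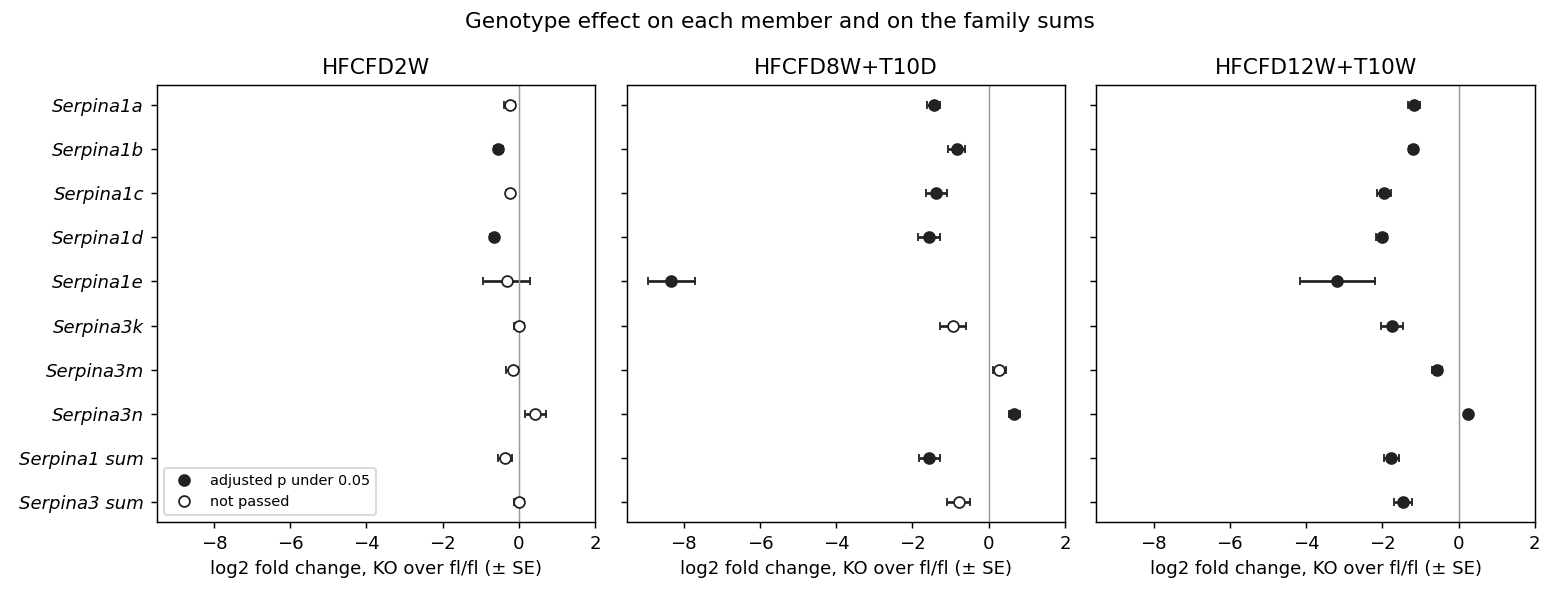
log2 fold change of knockout over fl/fl (point) with its SE (bar) for each member and for the summed counts of each family, in each experiment. Filled points passed an adjusted p under 0.05 in edgeR. The Serpina1 genes lie between -0.23 and -0.66 in HFCFD2W and between -0.84 and -8.32 in HFCFD8W+T10D, and Serpina3n stays to the right of 0.

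Summed over the family, where the division of reads among its own members does not matter, Serpina1 measured 32078 to 44146 CPM in fl/fl and 17929 to 40824 CPM in knockout livers of HFCFD2W. The groups overlapped and the log2 fold change of -0.36 ± 0.184 did not pass (adjusted p = 0.21, edgeR). In HFCFD8W+T10D the sum went from 18307 to 36359 CPM down to 5844 to 14998 CPM (-1.56 ± 0.273; adjusted p = 0.0025, edgeR), and in HFCFD12W+T10W from 15840 to 33057 CPM down to 6014 to 9318 CPM (-1.76 ± 0.204; adjusted p = 1.7e-05, edgeR). The Serpina3 sum follows Serpina3k. Its log2 fold change was 0.0038 ± 0.131 in HFCFD2W, -0.79 ± 0.303 in HFCFD8W+T10D (adjusted p = 0.094, edgeR) and -1.45 ± 0.230 in HFCFD12W+T10W (adjusted p = 0.00019, edgeR). The value of HFCFD8W+T10D passed in a joint fit of all libraries, in DESeq2, in limma and without knockout replicate 4.

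In the tamoxifen experiments the estimated shares of some genes in their family's summed counts differed between genotypes. Shares do not depend on how libraries are scaled, but they do depend on how shared reads were divided, above all between Serpina1a and Serpina1c. The shares within a family are also tied, since a fall in the share of a gene raises the shares of others. They were compared by a two-sided exact permutation test over all arrangements of the 10 mice, adjusted over 24 comparisons (smallest raw p = 0.00794). In HFCFD8W+T10D the share of Serpina1e was 17.5% ± 8.3 (SD, n = 5) in fl/fl and 0.181% ± 0.0605 in knockout livers, and that of Serpina1b 20.2% ± 2.85 and 32.8% ± 2.10 (exact permutation adjusted p = 0.0272 for both). Serpina1a, Serpina1c and Serpina1d kept shares within 3.59 percentage points of fl/fl and did not pass. In HFCFD12W+T10W the share of Serpina1a was 15.1% ± 2.08 and 22.6% ± 2.78 (exact permutation adjusted p = 0.0272) and that of Serpina1b 21.1% ± 4.68 and 30.5% ± 2.89 (0.0423). Serpina1e took 0.665% to 30.04% in fl/fl and 1.38% to 12.1% in knockout livers there and did not pass.

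Within the Serpina3 group, Serpina3k lost share in both tamoxifen experiments, from 93.5% ± 0.99 to 82.1% ± 6.88 in HFCFD8W+T10D (exact permutation adjusted p = 0.0272) and from 87.7% ± 5.53 to 71.0% ± 8.38 in HFCFD12W+T10W (0.0423). Serpina3n gained, from 3.50% ± 0.474 to 11.1% ± 4.84 and from 5.74% ± 2.33 to 17.7% ± 5.19, and passed in both (exact permutation adjusted p = 0.0272 for both). Serpina3m passed in HFCFD8W+T10D only, from 3.00% ± 0.539 to 6.82% ± 2.09. In HFCFD2W 0 of 8 shares passed the exact permutation test, and 0 had a raw p under 0.05. With shares of summed TPM, Serpina1b and Serpina3k in HFCFD12W+T10W were at 0.0635 and no longer passed.

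**Figure D4:**
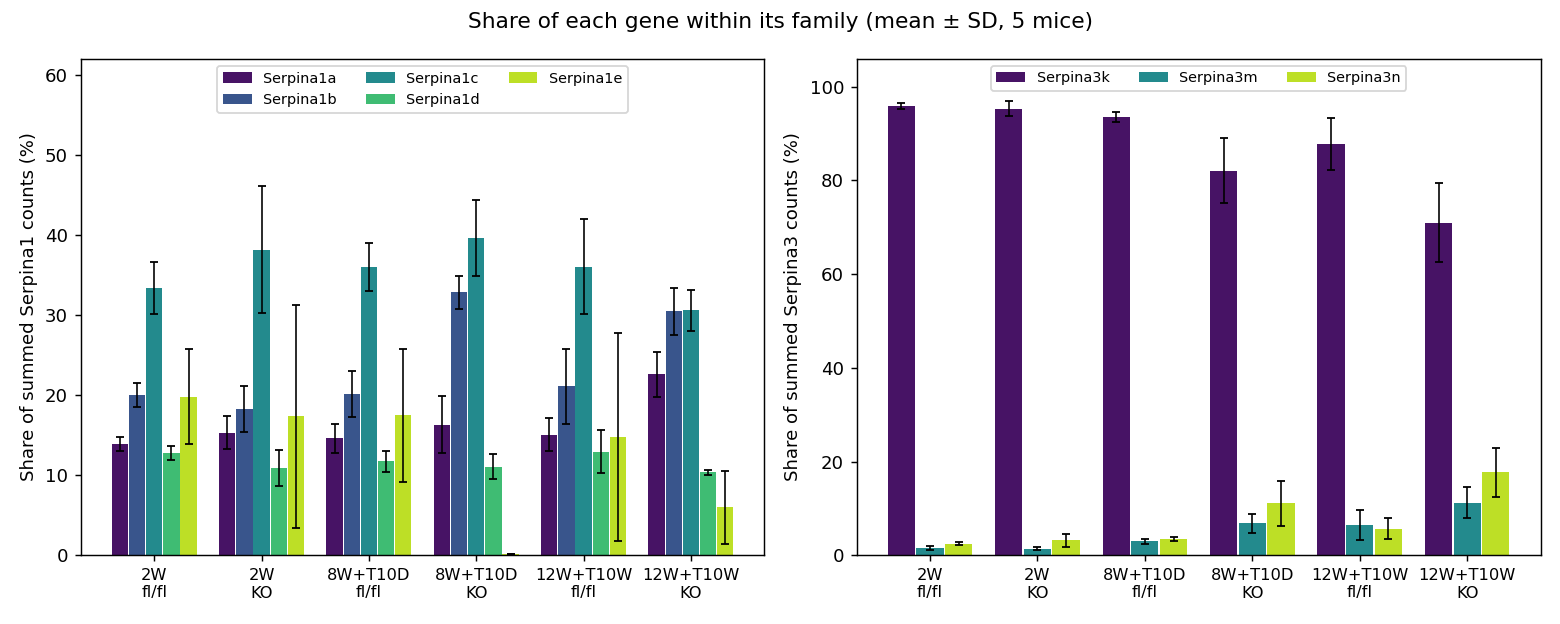
Share of each gene in the summed expected counts of its family, as the mean of 5 mice with the SD as bar, in each group. Serpina1e drops from 17.5% to 0.181% in HFCFD8W+T10D, Serpina1b rises to 32.8% there, and Serpina3n grows from 5.74% to 17.7% in HFCFD12W+T10W.

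Whether a genotype effect differed between experiments was tested as an interaction in 1 edgeR fit of the 30 libraries. Between HFCFD8W+T10D and HFCFD2W, the effects on 4 of 8 members differed (11.2% of the 12964 genes tested did): Serpina1a, Serpina1c, Serpina1d and Serpina1e, all more negative in HFCFD8W+T10D. Between HFCFD12W+T10W and HFCFD2W 6 of 8 differed (30.7% did), all Serpina1 genes and Serpina3k, again more negative with tamoxifen, and Serpina1e only just (adjusted p = 0.0499, edgeR). Between the tamoxifen experiments 2 of 8 differed (10.5% did). Serpina1e was less negative in HFCFD12W+T10W by 5.11 ± 1.18 on the log2 scale (adjusted p = 0.0069, edgeR), and the difference for Serpina3m was -0.86 ± 0.244 (adjusted p = 0.023, edgeR). The control groups are shared between these contrasts, and Cre line, age at deletion and diet time differ together between HFCFD2W and the others, so that their parts cannot be told apart.

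The control livers also differed between experiments. Against HFCFD2W, fl/fl livers of HFCFD8W+T10D were lower in Serpina1b (log2 difference -0.41 ± 0.154) and Serpina1d (-0.55 ± 0.203) and higher in Serpina3m (0.61 ± 0.173), so 3 of 8 members passed in edgeR (43.6% of all genes did). Fl/fl livers of HFCFD12W+T10W were lower than those of HFCFD2W in Serpina1a, Serpina1b, Serpina1d and Serpina3k and higher in Serpina3m (5 of 8, against 39.1% of all genes). Serpina3k was the only member that differed between the fl/fl groups of the 2 tamoxifen experiments, lower in HFCFD12W+T10W (log2 difference -0.94 ± 0.290; adjusted p = 0.032, edgeR; 11.4% of all genes passed). In the order of the 6 group medians, Serpina3k ran from 18655 CPM in knockout livers of HFCFD2W through 17600, 15820, 7909 and 7703 to 2046 CPM in knockout livers of HFCFD12W+T10W. Of its neighbours in that order, only the fl/fl livers of HFCFD8W+T10D and HFCFD12W+T10W did not overlap. Serpina3n was highest in knockout livers of HFCFD8W+T10D, at a median of 904 CPM, apart from the next group at 548 CPM, and the other 5 groups overlapped their neighbours.

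Genes other than the 8 members whose log2 CPM followed a member most closely over the 30 libraries are given as a description of libraries that differ by group. Some members were closer to each other than to any such gene, as Serpina1b and Serpina1d were (Pearson r = 0.984) and Serpina1c and Serpina1d (0.977), and their reads are divided between them. Serpina1d went with Serpinf1 (Pearson r = 0.976), Mup3 (0.975) and Adk (0.971), Serpina1c with Sult2a8 (0.974), Cyp4v3 (0.973) and Serpinf1 (0.965), and Serpina1b with Cyp2c67 (0.964), Mfsd4b1 (0.959) and Serpina12 (0.958). Serpina1a went with the major urinary protein genes Mup3 (0.967), Mup1 (0.966) and Mup22 (0.960), which are themselves close paralogs with divided reads. Serpina1e went with Mup2 (0.904), Mcm10 (0.891) and Gm8893 (0.888), the last of which shares sequence with it. Serpina3k went with Ces3b (0.947), Urah (0.946) and Rarres1 (0.946). Serpina3m had no neighbour above 0.849 (Rdh16f2), and Serpina3n none above 0.829 (Mcfd2, a subunit of the receptor that carries alpha-1-antitrypsin out of the endoplasmic reticulum).

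Other serpins and related genes were measured beside the members. The edgeR counts of each list are to be read against all genes tested. Of those, 8.09%, 6.85% and 23.8% fell and 8.6%, 10.3% and 27.4% rose from the first to the last experiment. Of 18 other clade A serpins, 9, 8 and 8 had enough counts, and 3, 2 and 5 of them fell and 1, 1 and 2 rose from the first to the last experiment. Serpina12, the adipokine vaspin, fell in all 3, from means of 117, 49.3 and 38.5 CPM to 37.2, 10.4 and 3.28 CPM. Serpina7, the thyroxine-binding globulin, fell by 1.75, 1.30 and 0.99 on the log2 scale, although with library totals it no longer passed in HFCFD8W+T10D, at -1.09, or in HFCFD12W+T10W, at -0.61. Among 5 plasma serpins of other clades, 1, 1 and 4 fell and 0 rose in edgeR, where 0, 1 and 0 were higher at an unadjusted p under 0.05, as in DESeq2, and 0, 3 and 1 in limma. With library totals 0, 3 and 1 of these 5 were higher and 1 was lower in each experiment, so their direction as a group turns on the scaling. Serpinf1, which encodes pigment epithelium-derived factor, fell in all 3 experiments in edgeR, with library totals, in DESeq2 and in limma (edgeR log2 fold change -0.42, -0.98 and -1.23). Serping1, the C1 inhibitor, was at -0.55 in HFCFD12W+T10W and, with library totals, at -0.18 without passing.

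Serpins that act inside or around cells had 2, 2 and 5 of the 7, 8 and 9 tested higher and 0, 1 and 1 lower. For the 0 lower in HFCFD2W, 1 was lower at an unadjusted p under 0.05 in edgeR, and 0 in DESeq2 and in limma. Serpine2, an inhibitor of thrombin and plasminogen activators, rose in HFCFD2W to a mean of 85.5 CPM, by 1.72 ± 0.183 on the log2 scale. Serpinb6b rose in HFCFD2W, from 1.24 to 3.06 CPM, and in HFCFD12W+T10W, from 2.47 to 16.2 CPM. Serpinb8 fell in HFCFD8W+T10D from 2.83 to 1.35 CPM, though not with library totals or in limma, and Serpini1 rose in HFCFD12W+T10W from 0.313 to 1.28 CPM.

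Of 17 secreted inhibitors that are not serpins, 15, 16 and 16 could be tested. In edgeR 1, 2 and 4 rose and 0, 1 and 8 fell, and with library totals 1, 4 and 6 rose and 0, 1 and 5 fell. The 0 lower in HFCFD2W was also 0 at an unadjusted p under 0.05 and in DESeq2 and limma. Spink1, a trypsin inhibitor, rose in all 3 experiments, from 0.364, 0.247 and 0.227 CPM to 6.16, 22.4 and 22.4 CPM. Wfdc2 fell from 6.85 to 0.664 CPM in HFCFD8W+T10D and from 7.95 to 1.75 CPM in HFCFD12W+T10W. Among proteases that serpins hold or that cut them, 0 of 9, 4 of 11 and 12 of 12 passed. In HFCFD12W+T10W 9 of these were lower (23.8% of all genes tested were) and 3 higher (27.4% were). For HFCFD2W the number that passed was also 0 at an unadjusted p under 0.05, in DESeq2 and in limma. With library totals 4 were lower and 3 higher in HFCFD12W+T10W. Those that rose were Mmp12, a macrophage elastase that is no serine protease (1.83 to 39.0 CPM), and the membrane proteases St14 (0.539 to 12.4 CPM) and Prss8 (0.70 to 4.81 CPM).

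The genes that fold and export secreted serpins had small differences. Of 14 such genes, all tested, 1 fell and 0 rose in HFCFD2W and 0 passed in HFCFD8W+T10D. In HFCFD12W+T10W 3 fell (23.8% of all genes tested did) and 1 rose (27.4% did). In HFCFD2W 3 were higher at an unadjusted p under 0.05 in edgeR, 1 in DESeq2 and 3 in limma, and in HFCFD8W+T10D 2 were higher and 2 lower at that p, with 1 lower in DESeq2 and 1 higher in limma. With library totals 7 of 14 were higher and 0 lower in HFCFD12W+T10W, and the median log2 fold change was 0.27 in place of -0.10, so the direction of this group there depends on the scaling. Edem1 and Sel1l, which take part in clearing misfolded proteins from the endoplasmic reticulum, were at -0.41 and -0.46 in HFCFD12W+T10W, and at -0.04 and -0.09 with library totals.

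Of 18 genes of the interleukin-6 and glucocorticoid responses and liver factors, 4, 1 and 1 rose and 0, 4 and 8 fell in edgeR. The 0 lower in HFCFD2W was 2 at an unadjusted p under 0.05, 1 in DESeq2 and 0 in limma, and with library totals 3, 2 and 2 rose and 0, 0 and 4 fell. In HFCFD2W the glucocorticoid target Tsc22d3 rose from 80.4 to 193 CPM, Cebpb from 22.1 to 47.7 CPM and the interleukin-6 receptor gene Il6ra from 39.2 to 74.1 CPM. Il6ra instead fell in HFCFD12W+T10W, from 149 to 68.2 CPM, as did the liver factor Hnf4a, from 713 to 357 CPM. Cebpb also fell there, from 43.9 to 31.5 CPM, and Hnf4a fell in HFCFD8W+T10D as well, from 706 to 473 CPM. Neither of these last 2 differences passed with library totals or in limma. Lcn2, an acute-phase gene, was the 1 of the 18 that rose in HFCFD8W+T10D in edgeR, where 4 fell. It went from 72.6 to 330.4 CPM and passed there in edgeR and DESeq2 but not in limma. In HFCFD12W+T10W Lcn2 was at 0.54 on the log2 scale and did not pass in edgeR, but did in limma, at 1.33. Onecut1 fell in HFCFD8W+T10D from 39.7 to 15.9 CPM, and did not pass with library totals or in limma.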

How the data were processed

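Whole-liver poly(A) RNA was sequenced as 1 stranded library per mouse. The submitters' processing notes list Trimmomatic 0.36, STAR 2.5.1, Picard 1.84, RSEM 1.2.22, DESeq2 and mm10. Per the file headers the authors deposited RSEM expected counts per gene, in which reads fitting several paralogs are divided among them, and TPM, which is scaled by transcript length within a library. The deposited CPM with TMM, RPKM and FPKM tables were not used. The 55450 gene identifiers all matched GENCODE M21.

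Expected counts were rounded and, within each experiment, filtered (filterByExpr), scaled by TMM and tested by edgeR 4.0.16 (quasi-likelihood, R 4.3.3), with Benjamini-Hochberg adjustment over all genes tested. A gene passed at an adjusted p under 0.05. CPM are TMM-scaled, and SE is the absolute log2 fold change over the square root of F. Family sums replaced the single genes in a second fit. Interactions and control contrasts came from 1 fit of the 30 libraries. Depth was 7996128 to 10257366 counts per library. The method was run on simulated counts with the same spread set for every gene, unlike these data, and no result here rests on that run. Coding sequences were aligned with mafft 7.526. No library files were identical.

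The members and lists were chosen with earlier results of these data known. From each list, genes were named that passed in the same direction in all 3 experiments (at most 4), and in each experiment the 2 with the largest change among those that passed with a mean of at least 1 CPM in either genotype. Prss8, Cebpb and Lcn2 in HFCFD12W+T10W, Hnf4a in HFCFD8W+T10D and Il6ra in HFCFD2W are given beside the experiment that named them. Of the genes this rule picked, 1 is not reported here. For likeness, the 3 other genes with the highest Pearson r of log2 CPM (prior count 2) were taken. Alternatives were DESeq2 1.42.0, limma 3.58.1 on log2(TPM + 1), upper-quartile scaling, no low-count filter, a fold over 2, a replicate block, the joint fit and leaving out each mouse. Library totals without TMM were added after seeing the data.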

Additional observations from a re-analysis of the deposited data

Results flagged for a closer look

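Of 48 groups of 5 mice (8 members in 6 groups), 4 held a mouse far from the others of its group. Chance gives about 1 in 20, and 4 of 48 is not far from that rate. The groups are not independent, since the same mice were measured for all 8 members. All 4 flagged groups were in HFCFD2W. Serpina1c was at 10500.0 CPM in fl/fl replicate 3, against 12523 to 13223 CPM in the other 4, and at 8052 CPM in knockout replicate 5, against 10798 to 11307 CPM. Serpina3m was at 250.4 CPM in fl/fl replicate 4, against 318 to 345 CPM, and Serpina3n at 1307 CPM in knockout replicate 3, against 344 to 569 CPM.

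Genotype effects that differed between experiments are given as differences of log2 fold changes, from the edgeR interaction test at an adjusted p under 0.05. From HFCFD2W to HFCFD8W+T10D they were -1.22 for Serpina1a, -1.16 for Serpina1c, -0.91 for Serpina1d, -8.01 for Serpina1e and -1.21 for the Serpina1 sum. From HFCFD2W to HFCFD12W+T10W they were -0.97 for Serpina1a, -0.69 for Serpina1b, -1.77 for Serpina1c, -1.40 for Serpina1d, -2.90 for Serpina1e, -1.78 for Serpina3k, -1.41 for the Serpina1 sum and -1.46 for the Serpina3 sum. From HFCFD8W+T10D to HFCFD12W+T10W they were 5.11 for Serpina1e and -0.86 for Serpina3m.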

How the results depend on the processing

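The number of lower members in HFCFD2W was 2, and 0 with a fold over 2. Of higher members, the 1 in HFCFD8W+T10D was 0 with a fold over 2 and 2 in limma and with library totals, and the 1 in HFCFD12W+T10W was 0 with a fold over 2, without the low-count filter and in the joint fit. The Serpina3 sum in HFCFD2W changed sign around 0 (0.0038), to -0.0047 with upper-quartile scaling and -0.000301 in the joint fit, as did Serpina3k, from -0.01 to 0.0596 with the replicate block, 0.11 in limma and 0.0219 with library totals. In HFCFD8W+T10D the Serpina3 sum passed in DESeq2 (-0.79), limma (-0.69) and the joint fit (-0.80). With shares of summed TPM, 2 in place of 4 members passed in HFCFD12W+T10W. The cause of these changes was not tested.

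Without each mouse in turn, the Serpina3 sum ranged from -0.0733 to 0.0888 in HFCFD2W and from -1.04 to -0.59 in HFCFD8W+T10D, Serpina3k in HFCFD2W from -0.0717 to 0.0835, the number of higher members in HFCFD12W+T10W from 0 to 1, and the number of members whose effect differed between the tamoxifen experiments from 1 to 3. The last was 1 without knockout replicate 3 or 4 or fl/fl replicate 3 of HFCFD8W+T10D, or fl/fl replicate 3 or 5 of HFCFD12W+T10W.

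Mice sharing a replicate number did not clearly deviate together (correlations -0.23 to 0.07, -0.09 to 0.16 and -0.05 to 0.18). Nothing in the labels says that the numbers pair mice, but correlations of 4 or 5 pairs per experiment cannot exclude it. With the replicate block 1, 5 and 6 members were lower and 0, 1 and 1 higher in the 3 experiments, and 1 differed between the tamoxifen experiments. Serpina1e in HFCFD12W+T10W (adjusted p = 0.0769, edgeR) and Serpina1b in HFCFD2W (0.0758) no longer passed.

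In limma and with library totals the median of all genes moved by 0.30 and 0.37 in HFCFD12W+T10W and by 0.16 and 0.18 in HFCFD8W+T10D. Of all genes that passed, 53.5% were higher in HFCFD12W+T10W, 63.3% with upper-quartile scaling and 87.8% and 88.0% in limma and with library totals. In HFCFD8W+T10D the percentages were 60.0% and 81.1% and 84.1%, and in HFCFD2W 51.5% and, in limma, 75.9%. The lowest value of a member was 8.83 CPM (Serpina1e in a knockout liver of HFCFD8W+T10D), where depth limits precision most.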

Other observations

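The spread of Serpina1e between fl/fl mice was set beside genes that differ between male and female mouse liver, lists chosen after its values were seen. All mice were male. Of 8 male-predominant genes, 1 was higher and 2 lower in knockout livers of HFCFD2W, and 5 of 7 tested were lower in both tamoxifen experiments. Of 8 female-predominant genes, 1 was tested and lower in HFCFD2W. In HFCFD8W+T10D 2 were higher and 3 lower of 5 tested, and in HFCFD12W+T10W 4 of 5 were lower. Of all genes tested, 8.09%, 6.85% and 23.8% were lower and 8.6%, 10.3% and 27.4% higher from the first to the last experiment.

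In fl/fl livers of HFCFD12W+T10W, replicate 5 had the lowest Serpina1e (105 CPM) and also the lowest Cyp4a12a (0.505 CPM), Slco1a1 (1.72 CPM) and Mup20 (457 CPM), all male-predominant genes. Replicates 1 and 4, with 9891 and 8939 CPM of Serpina1e, had 100.3 and 80.0 CPM of Cyp4a12a, 295 and 605 CPM of Slco1a1 and 4762 and 5873 CPM of Mup20. In fl/fl livers of HFCFD8W+T10D, replicate 5 had the lowest Serpina1e (777 CPM), with 6.39 CPM of Cyp4a12a, 158 CPM of Slco1a1 and 1164 CPM of Mup20, each the lowest of its group. Of the 8 male-predominant genes the mouse with the lowest Serpina1e was the lowest for 8 in HFCFD12W+T10W and for 7 in HFCFD8W+T10D, where Elovl3 (36.6 CPM) was above replicates 1 (32.2 CPM) and 3 (24.9 CPM). In HFCFD2W that mouse, replicate 2, was the lowest for only 2. Of the 8 female-predominant genes it was the highest for 2, 4 and 5 from the first to the last experiment. No cause of this spread was tested.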
